A study of Homo sapiens with 6 samples.

Results

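The 10 hypoxia response genes HIF1A, EPAS1, EGLN1, EGLN3, NDRG1, ADM, VEGFA, CA9, BNIP3 and ANKRD37 were followed through RNA-seq libraries of HCT116, an established line from a human colorectal carcinoma. They were picked by symbol out of 27942 genes in the deposited table, and all 10 were found and passed the filter on low counts. The choice was made with the difference between treated and untreated cells in view, so their values in that contrast are a description of the selected genes and carry no support for a response of the pathway. CA9 passed the filter only through the treated libraries and therefore had to differ. The 3 NT libraries came from cells without treatment and the 3 OXA libraries from cells given 0.5 µM oxaliplatin, a platinum drug that forms DNA adducts, for 24 h. All were grown in RPMI medium with serum, with no reduced oxygen named (the labels list antibiotics in the medium, whereas the methods of the study exclude them), and RNA was taken from an equal number of cells for each replicate. Neither the labels nor the methods tell whether replicates were separate cultures, so a p-value here measures only the spread between libraries, which may be technical. HCT116 is a single line with wild-type p53 and stands for no other tumour.

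Cells sense oxygen through the HIF transcription factors. Each is a pair made of an unstable alpha subunit, encoded by HIF1A or EPAS1, and the stable partner ARNT. With oxygen present, the prolyl hydroxylases encoded by EGLN1 to EGLN3 mark the alpha subunit, the VHL ubiquitin ligase binds it, and it is degraded. When oxygen, iron or hydroxylase activity is short, the alpha subunit enters the nucleus and binds DNA at short hypoxia response elements near genes for glycolysis, blood vessel growth, pH control and mitophagy. Because that control acts on the protein, the mRNA of an alpha subunit does not measure HIF activity. EGLN1 and EGLN3 are themselves HIF targets and feed back on it. NDRG1 is a stress-induced gene that responds to hypoxia, iron loss and p53.

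Depth was 32979521 to 40967880 counts per library. Differences between the groups are log2 fold changes of OXA over NT ± their standard errors, with n = 3 libraries in each group, and p-values are those of edgeR (quasi-likelihood test, adjusted after Benjamini and Hochberg across the whole table). The treatment was visible in the p53 targets CDKN1A, a cell cycle inhibitor (log2 difference 2.93 ± 0.148, edgeR adjusted p = 0.000445), and MDM2, the ubiquitin ligase of p53 (2.22 ± 0.122, edgeR adjusted p = 0.000445). As a check of the line, the summed level of 7 colorectal epithelial markers was 2149 to 3089.8 CPM (counts scaled to a common library size) in NT and 3496 to 4135 in OXA. Of the 7, 0 were called, where 2.78% of all genes were called higher and 2.29% lower. Their log2 differences, 3 positive and 4 negative, ran from -0.48 to 1.29 with a median of -0.040. The highest was that of KRT19 (edgeR adjusted p = 0.0616). With a block for the replicate number 3 were called higher, KRT19 among them (edgeR adjusted p = 0.00673), and 1 lower. That fit called 12.1% of all genes higher and 10.9% lower. The part of these markers in the results was not tested. The 5 fibroblast markers summed to 3.24 to 8.09 CPM in NT and 4.90 to 8.0 in OXA, with DCN and LUM at 0 in every library. The 4 endothelial markers summed to 0.609 to 0.780 in NT and 0.545 to 0.792 in OXA. The 4 leukocyte markers summed to 4.46 to 5.92 and 5.58 to 6.34, mostly CD68, with the defining PTPRC at a mean of 0.346 normalized counts in NT and 0.727 in OXA. The libraries carried a trend on base composition, and its part in the values of the members was not tested. In NT library 1, genes of high GC content were low against the other NT libraries. There r was -0.69 between a gene's deviation and its GC content, across 13675 genes that are not independent. The trend was positive in NT libraries 2 and 3 (0.60 and 0.34). In OXA libraries 1, 2 and 3 the r values were -0.411, 0.48 and -0.0917.

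All 10 genes had more mRNA in OXA than in NT. The log2 fold changes ran from 0.20 for HIF1A to 2.32 for CA9, with a median of 0.48, beside a median of 0.023 over the 13727 genes tested. NDRG1 was 2.12-fold higher, BNIP3 was 1.51-fold higher, and CA9 went from a few counts to about 15 counts per library. These 3 had an adjusted p-value under 0.05 by edgeR, and none was lower. CA9 had passed the filter only through the treated libraries, so its call and its separation carry no weight. Over all genes tested, 2.78% were called higher and 2.29% lower. In 7 of the 10 (EPAS1, EGLN1, EGLN3, NDRG1, ADM, CA9 and BNIP3) the lowest OXA library exceeded the highest NT library, and in no member did the highest OXA library lie below the lowest NT library. Among all genes 14.5% were separated in the first way and 14.4% in the second. Same-numbered libraries of the 2 groups shared their deviations, and a block for the replicate number gave 9 of the 10 an edgeR adjusted p under 0.05, all higher, where 12.1% of all genes were called higher and 10.9% lower. Since the genes were selected on this contrast, nothing is read from these shares. In bulk RNA, fewer or more cells expressing a gene and less or more RNA per cell cannot be told apart.

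**Figure D1:**
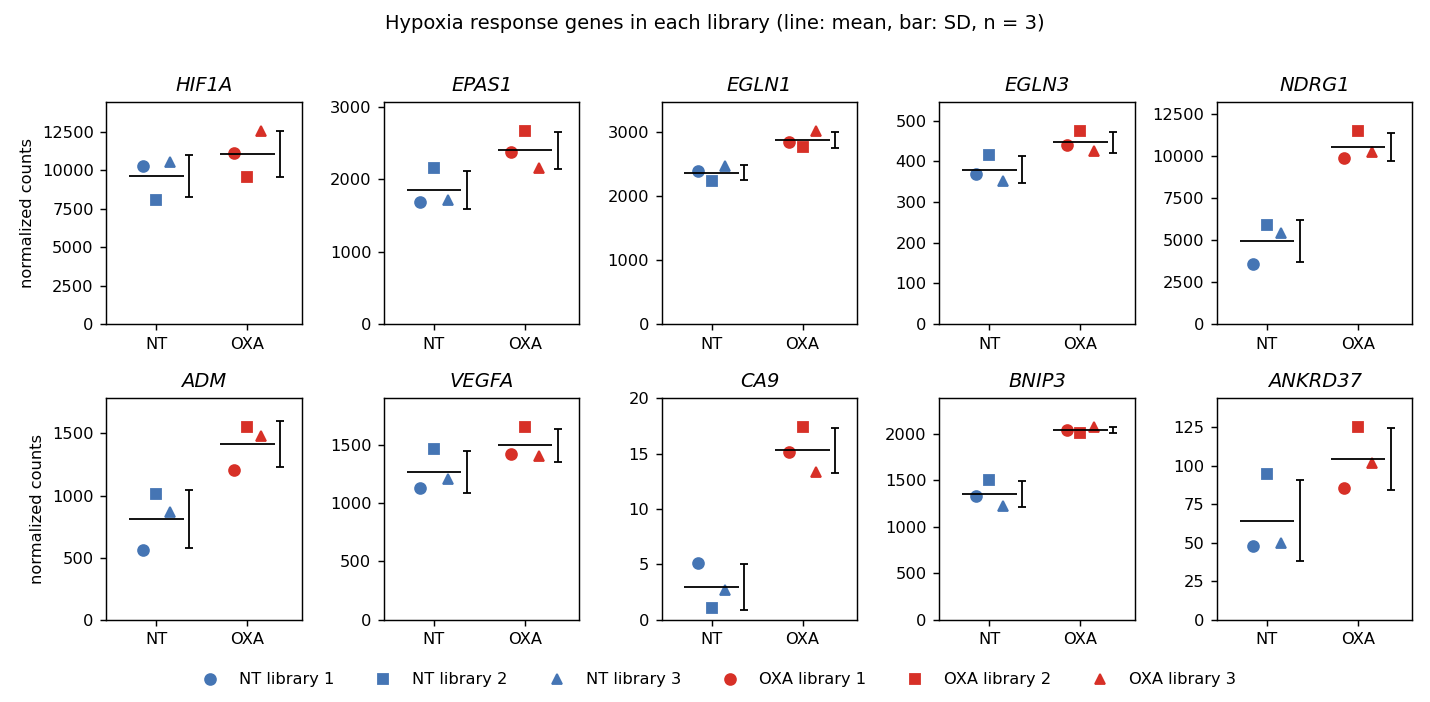
Counts normalized for library size (vertical axis, linear from 0, scaled for each gene) of the 10 genes in each library, with NT in blue and OXA in red, the marker shape giving the replicate number, the line the mean and the bar the SD (n = 3). The OXA points of NDRG1, BNIP3, CA9, ADM, EPAS1, EGLN1 and EGLN3 all lie above the NT points, while those of HIF1A, VEGFA and ANKRD37 overlap with them.

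The alpha subunits differed little. HIF1A (chr14:61695513-61748259, plus strand, GRCh38), the broadly expressed subunit, held 10269.5, 8039 and 10521 normalized counts in NT libraries 1 to 3 and 11099.9, 9529 and 12531 in OXA libraries 1 to 3. Library 2 was the lowest of its group in both conditions, and OXA library 2 fell below 2 of the NT libraries. The log2 difference was 0.20 ± 0.141 (edgeR adjusted p = 0.463), and 0.20 with the block (edgeR adjusted p = 0.0418). EPAS1 (chr2:46293667-46386697, plus strand), which encodes HIF-2alpha, the subunit known from endothelium and kidney, held 1684, 2149 and 1718 normalized counts in NT and 2373, 2664 and 2159.8 in OXA. Here library 2 was the highest of its group in both conditions, and NT library 2 lay just under the lowest OXA library. The log2 difference was 0.37 ± 0.130 (edgeR adjusted p = 0.147), or 0.38 with the block (edgeR adjusted p = 0.0130). On the ratio of same-numbered libraries, HIF1A ranged from 1.08 to 1.19 and EPAS1 from 1.24 to 1.41. Antisense transcripts annotated over HIF1A, HIF1A-AS1 and the gene listed as HIF1A-AS2, had between 0 and 2 counts in each library.

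Both oxygen sensors among the members were separated between the groups, and neither was called without the block. EGLN1 (chr1:231363751-231422287, minus strand) encodes PHD2, the main hydroxylase at normal oxygen. Its NT libraries held 2379.8, 2230.2 and 2460.4 normalized counts and its OXA libraries 2846, 2766 and 3009. The groups were separate and narrow, with a log2 difference of 0.29 ± 0.0855 (edgeR adjusted p = 0.102), which the block took to an edgeR adjusted p of 0.0157. An annotated protein-coding gene on the same strand, not analysed here, shares 3004 exon bases with EGLN1. EGLN3 (chr14:33924227-34462774, minus strand) encodes PHD3, a hydroxylase that hypoxia induces. It held 370.1, 416 and 351 normalized counts in NT and 440.4, 474 and 424 in OXA. The OXA libraries again all lay above, although the lowest of them exceeded the highest NT library by less than the SD of either group (33.1 in NT, 25.6 in OXA). With a log2 fold change of 0.24, a standard error of 0.127 and an edgeR adjusted p of 0.337, EGLN3 was the only member that stayed uncalled with the block (edgeR adjusted p = 0.104).

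NDRG1 (chr8:133237175-133302022, minus strand) led the well-measured members. It held 3566, 5916 and 5464 normalized counts in NT libraries 1 to 3, and 9889, 11509 and 10277 in OXA libraries 1 to 3. NT library 1 was far below the other NT libraries, at 0.733 of the geometric mean of its group, and the lowest OXA library stood well above the highest NT library. The log2 difference was 1.08 ± 0.183 (edgeR adjusted p = 0.0209). Of all genes tested, 1.44% had a larger positive difference. The 3 same-numbered ratios were 2.77, 1.95 and 1.88, the first of them resting on NT library 1. Without NT library 1 the log2 fold change was 0.89 (edgeR adjusted p = 0.00149), and without NT library 2 it was 1.20 (edgeR adjusted p = 0.0353). The call was lost without NT library 3 (1.13, edgeR adjusted p = 0.0711) and without OXA library 1 (1.13, edgeR adjusted p = 0.0824), OXA library 2 (1.02, edgeR adjusted p = 0.0916) or OXA library 3 (1.08, edgeR adjusted p = 0.0843). Removing each library's trends on GC content and transcript length, a setting added after the data were seen, together with the block gave 1.12 (edgeR adjusted p = 1.9e-07). An annotated noncoding gene on the same strand, absent from the deposited table, shares 753 exon bases with NDRG1.

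The secreted factors differed from each other in size. ADM (chr11:10305073-10307397, plus strand) encodes the vasodilator peptide adrenomedullin. Its counts were 559, 1009 and 864 in NT and 1203, 1554 and 1481 in OXA, on the normalized scale. As for NDRG1, NT library 1 was low, at 0.711 of the geometric mean of NT, and OXA library 1 was the lowest of its group. The log2 fold change of 0.80 (standard error 0.215) did not pass (edgeR adjusted p = 0.0788), whereas without NT library 1 it was 0.59 (edgeR adjusted p = 0.0288), with the block 0.83 (edgeR adjusted p = 0.00684) and in DESeq2 0.80 (adjusted p = 0.00507). VEGFA (chr6:43770184-43786487, plus strand), the chief growth factor of blood vessels and the textbook HIF target, held 1129.6, 1464 and 1201 normalized counts in NT and 1422, 1653 and 1403 in OXA. NT library 2 lay above 2 of the 3 OXA libraries, so the groups overlapped. Its log2 difference was 0.24 ± 0.130 (edgeR adjusted p = 0.343), and the block gave an edgeR adjusted p of 0.0466 at 0.24.

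CA9 (chr9:35673928-35681159, plus strand), a membrane carbonic anhydrase that is widely used as a tissue marker of hypoxia, was close to silent. Raw counts were 5, 1 and 3 in NT and 14, 16 and 15 in OXA. Each OXA library lay above each NT library, but NT values sat around the floor of 3 counts, so the size of the ratio is loose. Summed over the libraries, 45 against 9 counts gave a ratio of 5.12, with an exact 95% interval of 2.47 to 11.9 that covers counting error only. The fitted log2 difference was 2.32 ± 0.498 (edgeR adjusted p = 0.0428), a value that depends on the prior count at this depth. Because CA9 passed the filter only through the OXA libraries, nothing is concluded from the interval or from the p-values of CA9. Without NT library 1 the log2 difference was 2.90 (edgeR adjusted p = 0.0219). The call was lost without NT library 2 (1.91, edgeR adjusted p = 0.0957), NT library 3 (2.23, edgeR adjusted p = 0.140), OXA library 1 (2.32, edgeR adjusted p = 0.160), OXA library 2 (2.22, edgeR adjusted p = 0.160) or OXA library 3 (2.38, edgeR adjusted p = 0.124), and without the filter on low counts (edgeR adjusted p = 0.0577). DESeq2 gave no adjusted p for it, and limma on the authors' normalized values did not call it (2.01, limma adjusted p = 0.124). CA9 shares 571 exon bases with ARHGEF39 on the opposite strand, a gene singled out after its values were seen. ARHGEF39 had 897, 973 and 1070 raw counts in NT, against 666, 607 and 747 in OXA, the opposite direction (log2 difference -0.50, edgeR adjusted p = 0.0358). The library kit keeps the strand, but the strand setting of the counting is not given in the sources used here, so reads of the pair may not be told apart.

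BNIP3 (chr10:131967684-131981967, minus strand), a mitochondrial receptor for mitophagy, was cleanly separated. It held 1327, 1504 and 1222 normalized counts in NT and 2036, 2002 and 2074 in OXA. The OXA libraries spread by an SD of 36.2 around a mean of 2037, and the gap to the highest NT library was wider than the whole NT range. The log2 difference was 0.59 ± 0.104 (edgeR adjusted p = 0.0223). It was called without NT library 1 (0.58, edgeR adjusted p = 0.0152) or NT library 2 (0.65, edgeR adjusted p = 0.0360). It was not called without NT library 3 (0.49, edgeR adjusted p = 0.0865) or OXA library 1 (0.59, edgeR adjusted p = 0.116). Nor was it called without OXA library 2 (0.61, edgeR adjusted p = 0.0955) or OXA library 3 (0.55, edgeR adjusted p = 0.109). Limma on the authors' normalized values did not call BNIP3 either (0.62, limma adjusted p = 0.0770). ANKRD37 (chr4:185396021-185400628, plus strand), a small ankyrin repeat protein, was scarce. Its libraries held 48.0, 94.6 and 50.2 normalized counts in NT and 85.5, 125 and 102 in OXA. Library 2 was the highest in both groups and NT library 2 exceeded OXA library 1, so the groups overlapped. The log2 difference was 0.70 ± 0.308 (edgeR adjusted p = 0.242), with the block 0.74 (edgeR adjusted p = 0.0400). ANKRD37 shares 909 exon bases with UFSP2 on the opposite strand, whose raw counts ran from 995 to 1172 in NT and from 1021 to 1410 in OXA, and the limit on strand given for CA9 holds here too.

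**Figure D2:**
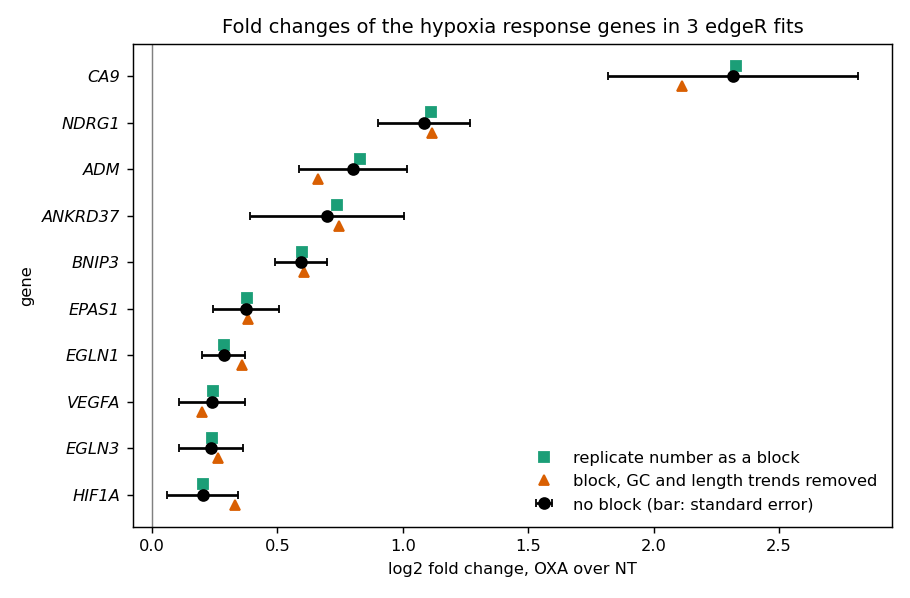
Log2 fold change of OXA over NT (horizontal axis) for each of the 10 genes, ordered by size, in 3 edgeR fits: without a block (black, bar: standard error), with the replicate number as a block (green squares), and with the block after each library's trends on GC content and length were removed (orange triangles). All points lie right of 0, and the fits differ most for CA9 (2.32, 2.33 and 2.11) and ADM (0.80, 0.83 and 0.66).

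The members did not all vary together from library to library within a group. HIF1A and EGLN1 deviated in the opposite sense to the rest. Over the 6 libraries, each taken against the mean of its group on the log2 scale, HIF1A or EGLN1 paired with EPAS1, EGLN3, NDRG1, ADM, VEGFA, BNIP3 or ANKRD37 gave 14 correlations, all 14 negative (-0.99 to -0.29), while 0 of the 21 correlations among those 7 genes were negative (0.22 to 0.96). HIF1A and EGLN1 followed each other at 0.97. CA9, with its few counts, was left out of these ranges. These are 6 points that share libraries and their trends on base composition, and no test was made. HIF1A had the lowest GC content of the members, 36.4% in its longest transcript, followed by ANKRD37 with 42.1% and EGLN1 with 46.4%, while NDRG1 had 52.1% and ADM 58.5%. ANKRD37 deviated against HIF1A (-0.83) and EGLN1 (-0.74). Once the trends on GC content and length had been removed, 10 of the 14 correlations were negative (-0.96 to 0.25) and 3 of the 21 (-0.38 to 0.95). In that setting, with the block, all 10 genes had an edgeR adjusted p under 0.05 and all were higher, where 24.5% of all genes were called higher. HIF1A then had a log2 difference of 0.33 (edgeR adjusted p = 0.000193) and EGLN3 one of 0.26 (edgeR adjusted p = 0.0267).

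**Figure D3:**
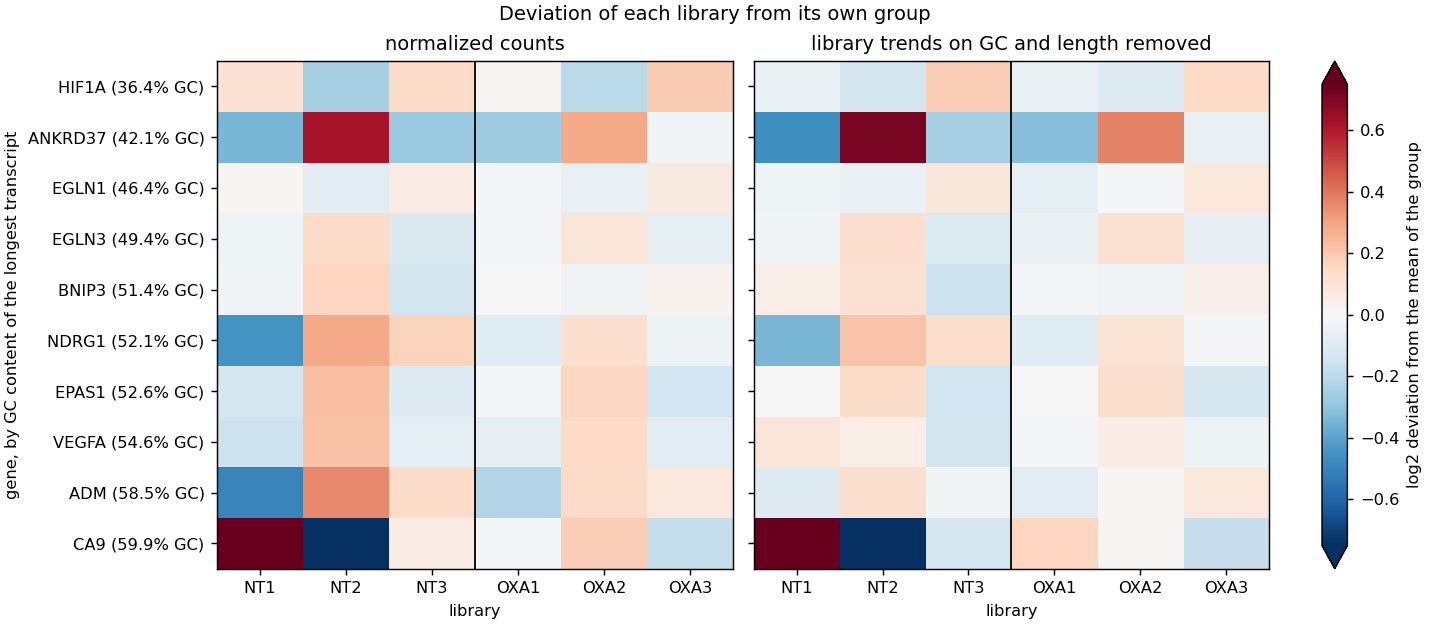
Deviation of each library from the mean of its own group (colour, log2 scale, arrows at the scale's ends mark values beyond 0.75) for each gene, ordered from low to high GC content of its longest transcript, before (left) and after (right) each library's trends on GC content and length were removed. In NT library 1, NDRG1, ADM and ANKRD37 are blue (0.733, 0.711 and 0.789 of the group's geometric mean) while HIF1A is pale red (1.08), and the low ADM value is paler on the right.

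Levels of different genes were compared per length, as CPM per kilobase of merged exons. On this length HIF1A was the most abundant, at 51.8 ± 7.37 (SD, n = 3) in NT and 59.6 ± 8.10 in OXA. In NT there followed EGLN1 (12.2 ± 0.603), NDRG1 (11.5 ± 2.89), ADM (9.69 ± 2.75), BNIP3 (9.27 ± 0.977) and EPAS1 (7.05 ± 0.988). The libraries of EGLN1 and NDRG1, of NDRG1 and ADM, and of ADM and BNIP3 overlapped, so these neighbours are not ordered beyond their spread. VEGFA (2.44 ± 0.339), EGLN3 (1.43 ± 0.125), ANKRD37 (0.793 ± 0.324) and CA9 (0.0515 ± 0.0356) were lower, each separate from the gene before it. In OXA, NDRG1 (24.4 ± 1.96) and ADM (16.9 ± 2.21) stood above EGLN1 (14.8 ± 0.639), at places 2, 3 and 4 of the order, although the libraries of ADM and EGLN1 overlapped. The length matters here. With the longest single transcript in place of merged exons, 4 of the 10 genes kept their place in NT. NDRG1 then had 34.8 ± 8.70 in NT, against a mean of 67.5 for HIF1A. In OXA the means on that length were close, 77.7 for HIF1A and 73.7 for NDRG1.

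**Figure D4:**
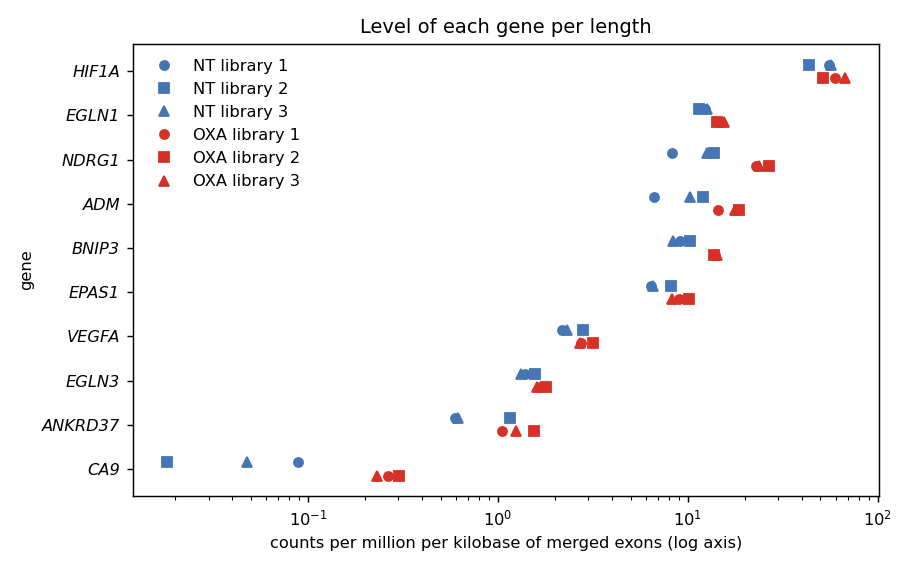
Level of each gene per length (horizontal log axis, CPM per kilobase of merged exons) in each NT (blue) and OXA (red) library, ordered by the NT mean. HIF1A lies highest at 51.8 in NT, NDRG1 moves from 11.5 in NT to 24.4 in OXA, and CA9 lies lowest at 0.0515 and 0.266.

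Other parts of the oxygen-sensing machinery showed no call. Of 15 further components of the HIF pathway, 14 were tested, and 0 were called in either direction by edgeR. An unadjusted edgeR p under 0.05 was found for 2 of the 14, and for 2980 of all 13727 genes. The median log2 fold change of the 14 was 0.047. DESeq2 and limma-voom called 0 as well. ARNT, the partner of both alpha subunits, held 2959, 2626 and 2544 normalized counts in NT and 2927, 2583 and 2491 in OXA, a log2 difference of -0.023 (edgeR adjusted p = 0.924). The other regulators were VHL (-0.0070, edgeR adjusted p = 0.979), HIF1AN, the asparaginyl hydroxylase that blocks the transactivation domain of the alpha subunits (-0.033, edgeR adjusted p = 0.866), and EGLN2, the third prolyl hydroxylase (0.19, edgeR adjusted p = 0.720). The sign of each of these 4 turned in at least 1 other setting, so no direction is given for them. The components with the smallest p were CITED2, a HIF-induced competitor for the coactivator p300 (0.38, edgeR adjusted p = 0.121), SIAH1, a ubiquitin ligase for prolyl hydroxylases (-0.34, edgeR adjusted p = 0.141), and ELOC, a subunit of the VHL ligase (0.20, edgeR adjusted p = 0.355). With the block, CITED2 was called higher (edgeR adjusted p = 0.0244) and SIAH1 lower (edgeR adjusted p = 0.0294). Over all genes that fit called 12.1% higher and 10.9% lower. With GC and length trends removed as well, 4 of the 14 were called, beside 3355 higher and 2073 lower of 13675 genes.

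Glycolytic HIF targets had smaller differences than NDRG1, and nearly all of them were positive. Of 21 such genes, all tested, 20 had a positive log2 difference, and their median log2 fold change was 0.36. By edgeR 2 were called higher and 0 lower (9.52% of the list, beside the 2.78% higher over all genes). In 14 of the 21 the lowest OXA library exceeded the highest NT library, a separation found in 14.5% of all genes. Earlier results of these data were known when the list was written, so nothing is read from these shares. HK2, the hexokinase that commits glucose to glycolysis, held 2285, 2524 and 1990.4 normalized counts in NT and 3503, 3626 and 3304 in OXA, fully separate groups (log2 difference 0.62 ± 0.107, edgeR adjusted p = 0.0220). ENO2, a neuronal enolase also made in tumour cells, held 2468, 2940.0 and 2768 in NT and 3705, 3768 and 3660.2 in OXA, again without overlap (log2 difference 0.45 ± 0.0915, edgeR adjusted p = 0.0374). DESeq2 called 6 of the list, beside 633 higher and 635 lower of 13727 genes. The block called 18, all higher (12.1% of all genes). Removal of GC and length trends called 10, beside 1527 higher and 917 lower of 13675 genes. Without NT library 1 there were 3 calls, without NT library 2 there was 1, and without NT library 3 or any single OXA library there were 0. Over all genes, the fits without NT libraries 1, 2 and 3 called 623, 153 and 115 higher. Those without OXA libraries 1, 2 and 3 called 66, 94 and 102 higher, against 381 with all libraries.

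Calls were also found among other HIF targets. Of 42 genes, 37 were tested, and 7 were called higher and 0 lower (18.9% of those tested, beside 2.78% higher over all genes). The median log2 fold change was 0.28. In 19 of the 37 the lowest OXA library exceeded the highest NT library, a separation found in 14.5% of all genes. DDIT4, an inhibitor of mTORC1 that p53 also induces, held 1228, 2018 and 1173 in NT and 3336, 4202 and 3354 in OXA (log2 difference 1.302 ± 0.218, edgeR adjusted p = 0.0202). The groups did not overlap, and library 2 was the highest in both, as it was for EPAS1, EGLN3, NDRG1, ADM, VEGFA and ANKRD37. Also called were GBE1, the glycogen branching enzyme (0.80, edgeR adjusted p = 0.0139), BHLHE40, a transcriptional repressor (0.80, edgeR adjusted p = 0.0428), FAM162A, a mitochondrial protein (0.57, edgeR adjusted p = 0.0165), P4HA1, a collagen prolyl hydroxylase (0.56, edgeR adjusted p = 0.0218), and RIOK3, an atypical kinase (0.49, edgeR adjusted p = 0.0273). DESeq2 called 11, beside 633 higher and 635 lower of 13727 genes. The block called 19, all higher (12.1% of all genes). Removal of GC and length trends called 17, beside 1527 higher and 917 lower of 13675 genes. Without NT library 1 there were 11 calls and without NT library 2 there were 3. Without OXA library 2 there were 2, and without NT library 3, OXA library 1 or OXA library 3 there was 1. In these fits the genes called higher over the whole table numbered 623, 153 and 115 without NT libraries 1, 2 and 3. They numbered 66, 94 and 102 without OXA libraries 1, 2 and 3, against 381 with all libraries. The list was written with earlier results of these data known, and it holds genes that p53 controls as well.

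**Figure D5:**
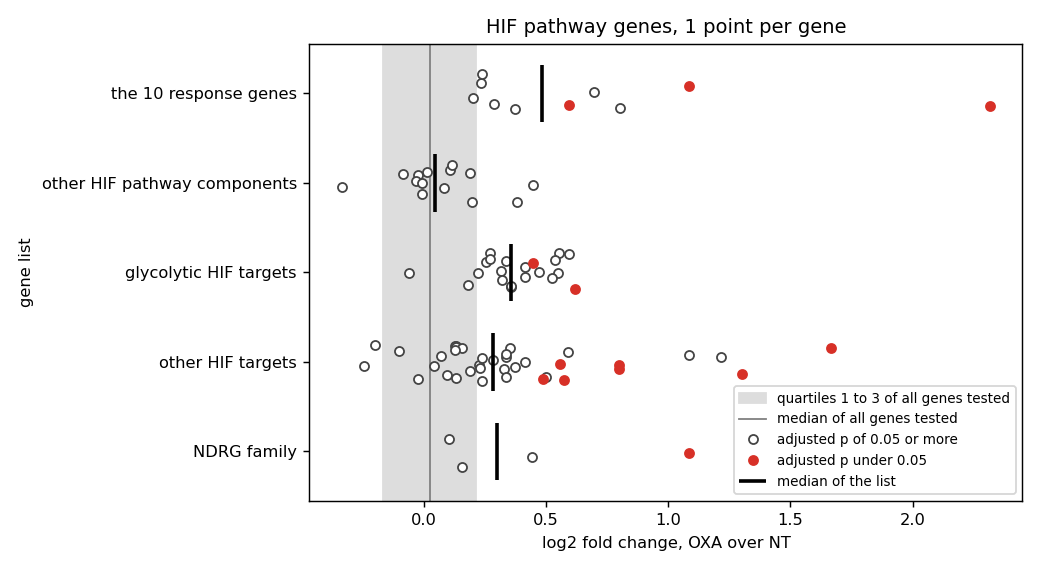
Log2 fold change of OXA over NT (horizontal axis) of every tested gene in the 5 lists, 1 point per gene, red for an edgeR adjusted p under 0.05, with the median of each list as a black bar, the median of all genes as a grey line (0.023) and the span of its middle quartiles as a grey band. The medians are 0.48 for the 10 response genes, 0.047 for other components, 0.36 for glycolytic targets, 0.28 for other targets and 0.30 for the NDRG family.

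NDRG1 was the only called gene of its family, whose members carry an alpha/beta hydrolase fold without known enzyme activity. NDRG2 held 727, 787 and 813 normalized counts in NT and 837, 829.7 and 833 in OXA (log2 difference 0.10, edgeR adjusted p = 0.603). NDRG3 had a log2 difference of 0.15 (edgeR adjusted p = 0.375). NDRG4 held 315, 506 and 466 in NT and 504, 644 and 602 in OXA, with library 1 the lowest in both groups as for NDRG1 (0.44, edgeR adjusted p = 0.243, and 0.46 with the block, edgeR adjusted p = 0.0274). Whether NDRG1 differed more than its paralogs was not tested.

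The genes whose log2 normalized counts followed NDRG1 most closely over the 6 libraries, out of 12065 with a mean of at least 50 normalized counts, were ELF3, an epithelial transcription factor (r = 0.99964), YBX3, a cold-shock domain protein (0.99903), SLC45A3, a sugar transporter family member (0.99823), METTL22, a lysine methyltransferase (0.99787), and LAMB3, a laminin chain (0.99769). For METTL22 the log2 difference was 0.49 ± 0.15 (edgeR adjusted p = 0.106, and 0.0291 with the block). All 5 share with NDRG1 the difference between the groups and a low NT library 1. ELF3 held 944, 1615 and 1480.2 normalized counts in NT and 2748, 3132 and 2892 in OXA (log2 difference 1.12 ± 0.191, edgeR adjusted p = 0.0210). LAMB3 held 467, 828 and 814 in NT and 1733, 2178 and 1941 in OXA (1.47 ± 0.220, edgeR adjusted p = 0.0130). Among the members, the correlation with NDRG1 was highest for ADM (0.97) and lowest for HIF1A (0.30). These are descriptions over 6 libraries that share depth and base composition trends.

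The promoters of the members were read for the core letters of the hypoxia response element, A or G followed by CGTG, as a description. RefSeq's promoter table (GRCh38.p14) holds 250 bases before to 50 bases after each start for 8 of the 10 genes, as 9 windows, and not for VEGFA or NDRG1. ACGTG or GCGTG stood on either strand in 7 of the 9 windows (77.8%), against 48.4% of all 35116 promoter windows and 53.7% of those of genes in the deposited table. The ACGTG form was in 4 of the 9, those of ANKRD37, BNIP3, CA9 and EGLN1, against 21.4% of all windows. EGLN3 and the second start of HIF1A had neither form in these windows. For the other lists the share with either form was 52.4% for other components, 70.0% for glycolytic targets and 90.2% for other targets. The members and the target lists were chosen as hypoxia response genes or HIF targets, so nothing is read from these shares. A match is a run of letters and not a measured binding site, and no match says nothing of elements elsewhere. Shown next are the bases outside any annotated exon within the 200 before the start of 4 members, read 5′ to 3′ on the strand of the gene, with matches in capitals, where a match on the opposite strand reads CACGT or CACGC.
ANKRD37 (chr4:185396641-185396810, plus strand): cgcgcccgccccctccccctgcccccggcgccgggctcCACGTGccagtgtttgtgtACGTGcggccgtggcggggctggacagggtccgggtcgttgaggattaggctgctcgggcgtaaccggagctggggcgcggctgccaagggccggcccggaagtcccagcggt
BNIP3 (chr10:131981968-131982123, minus strand): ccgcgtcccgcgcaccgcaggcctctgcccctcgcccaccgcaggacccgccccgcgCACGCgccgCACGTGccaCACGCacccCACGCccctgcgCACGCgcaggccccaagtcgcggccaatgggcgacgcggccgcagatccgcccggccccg
EGLN1 (chr1:231422288-231422487, minus strand): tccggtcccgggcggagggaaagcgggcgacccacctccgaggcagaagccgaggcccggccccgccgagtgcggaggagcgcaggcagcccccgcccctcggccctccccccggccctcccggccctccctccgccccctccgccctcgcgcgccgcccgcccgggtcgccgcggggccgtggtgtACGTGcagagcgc
ADM (chr11:10304878-10305072, plus strand): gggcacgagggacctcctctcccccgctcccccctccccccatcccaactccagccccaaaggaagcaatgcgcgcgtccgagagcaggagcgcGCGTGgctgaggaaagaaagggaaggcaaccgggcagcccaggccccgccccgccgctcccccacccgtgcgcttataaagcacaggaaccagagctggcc
They are shown because the first 3 hold ACGTG in different arrangements and ADM has the GCGTG form alone. In ANKRD37 a CACGTG palindrome, which counts once on each strand with overlapping letters, begins 162 bases before the start, and a further ACGTG begins 143 bases before it. BNIP3 has 6 matches between 143 and 104 bases before its start, of which 2 overlap in a CACGTG. EGLN1 has 1 match 13 bases before the start and ADM has 1 at 101 bases. CA9 has 1 at 18 bases, inside an exon of ARHGEF39 on the other strand. Read side by side and with no test, ANKRD37 with 3 matches had a log2 fold change of 0.70 and BNIP3 with 6 had 0.59, while the genes with 1 match ranged from 0.20 for HIF1A, 0.29 for EGLN1 and 0.37 for EPAS1 to 0.80 for ADM and 2.32 for CA9, and EGLN3 with 0 matches had 0.24.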

How the data were processed

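RNA-seq libraries of HCT116 cells (3 NT, 3 OXA) were grouped by their labels, and all 6 were used. The labels describe stranded libraries from polyadenylated RNA. The submitters' processing notes name Trimmomatic 0.32, STAR 2.7.5b, RSEM 1.3.3 and DESeq2, with the build GRCh38. The annotation and strand setting of the counting are not given in the sources used here. For each gene and library the authors deposited raw counts, which were whole numbers and entered all tests, and normalized values. The latter, a deposited signal, carry a factor that differs between genes, so they served only in an alternative, as log2 of the value plus 1. No column was without a sample. The 10 genes and all lists were chosen with earlier results of these data known.

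Genes were filtered with filterByExpr at a minimum count of 10 and a minimum total of 15, leaving 13727, normalized by TMM and compared with edgeR 4.0.16 (quasi-likelihood test, limma 3.58.1, R 4.3.3), without a block as in the study, with p-values adjusted after Benjamini and Hochberg over the 13727 genes and a threshold of 0.05. Standard errors were derived from the estimate and its F statistic. Normalized counts are raw counts scaled to the mean effective library size. The steps were tested on simulated counts before use. PCR duplicates could not be told apart, so intervals cover counting error only, and 3 counts were taken as the floor.

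The replicate numbers in the labels were checked as pairs. Deviations from the group means correlated between same-numbered NT and OXA libraries (0.511, 0.502 and 0.28 for numbers 1 to 3, each over 0.1) and lay between -0.436 and 0.0832 for different numbers. What a number stands for is not stated. The block is therefore given where it changes a call.

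Alternatives were RLE factors, no filter on low counts, a filter at a mean of 50 counts, DESeq2 1.42.0, limma-voom, the block, limma on the authors' normalized values, and each library left out. Removing each library's trends on GC content and longest-transcript length (splines used as offsets, 99.6% of tested genes with a value), alone and with the block, was chosen after the data had been seen. Gene positions, lengths and GC content came from a GRCh38 annotation, promoters from RefSeq.

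Named were the 10 genes, CDKN1A and MDM2, in each list every gene past the threshold (at most 10 by size) or else the 3 with the smallest p, ARNT, VHL, HIF1AN, EGLN2, the NDRG family, and the 5 genes most correlated with NDRG1. Not every gene that this rule selects is reported here. KRT19 and the overlapping genes were named after their values were seen.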

Additional observations from a re-analysis of the deposited data

How the results depend on the processing

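At an adjusted p under 0.05 edgeR called 381 genes higher and 315 lower. DESeq2 gave 633 and 635, the replicate block 1664 and 1493, limma on the authors' normalized values 236 and 187, removal of GC and length trends 1527 and 917, and that removal with the replicate block 3355 and 2073. With 1 library left out at a time the counts ranged from 66 to 623 higher and from 19 to 571 lower.

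Of the 10 hypoxia response genes 3 were called. The replicate block gave 9, limma on the authors' values 1, removal of GC and length trends 6, that removal with the replicate block 10, and leaving out 1 library 0 to 4. The other HIF pathway components went from 0 calls to 2 with the block, 2 with the trends removed and 4 with both, and stayed at 0 in each fit with a library left out. The glycolytic targets went from 2 to 6 in DESeq2, 18 with the block, 1 with limma on the authors' values, 10 with the trends removed and 19 with both, and ranged from 0 to 3 with a library left out. The other targets went from 7 to 11 in DESeq2, 19 with the block, 17 with the trends removed and 27 with both, and ranged from 1 to 11. The NDRG family went from 1 to 2 with the block and 3 with the trends removed, with or without it, and ranged from 0 to 1. RLE factors, limma-voom and both filters kept each of these counts within 1.5 times. The cause of these differences was not tested. Among the genes named by the rule, which leaves out KRT19, the block added 10 calls, given in the report, and took away 0.

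Signs turned for 4 uncalled genes. With 1 library left out ARNT ranged from -0.10 to 0.045, VHL from -0.087 to 0.045, HIF1AN from -0.10 to 0.0079 and EGLN2 from -0.054 to 0.35. ARNT was at 0.055 with the trends removed and 0.054 with the block as well, VHL at 0.067 and 0.066, and HIF1AN at 0.029 in both. VHL was at 0.042 without OXA library 2. In the promoters the count of 7 members with a match was the same for the bases before the start alone. With the longest transcript as length, 4 of 10 genes kept their place in the order of levels, by the construction of that length.

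With 3 libraries per group, differences as small as that of HIF1A or EGLN3 were not called without the block. The libraries of EGLN3 did not overlap between the groups, whereas those of HIF1A did. CA9 had only 1 to 5 counts in NT.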
